A study of Mus musculus with 6 samples.

Results

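Heat shock proteins and DNAJ proteins are general chaperones, and 73 of the 34844 gene names on the arrays belong to these families. They were taken by symbol alone, from non-control spots named Hspa, Hspb, Hspd, Hspe, Hsph or Hsp90, or named Dnaja, Dnajb or Dnajc with a number. The 73 genes were read by 110 of 55681 probes, on 128 of the 59305 non-control spots of an array. By the place where their proteins are known to work, 42 genes were assigned to the cytosol and nucleus, 8 to mitochondria, 12 to the endoplasmic reticulum (ER) and 11 to other sites or to none. A symbol rule also takes in relatives by name, such as *Hspb11*, a protein of intraflagellar transport. *Hspa1b* was not among the names on the arrays, and the probe named *Hspa1a* lists transcripts of 2 genes, *Hspa1a* and *Hspa1b*, so its signal cannot be assigned to either gene alone.

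An HSP70 protein grips exposed hydrophobic stretches of unfolded proteins, and a J protein of the DNAJ family delivers the client and drives ATP hydrolysis by HSP70, while HSP110 and BAG proteins release the bound ADP. HSP90 acts on clients closer to the native state, small heat shock proteins hold unfolded clients without ATP, and HSP60 with its lid HSP10 encloses proteins in mitochondria. Cytosolic heat shock genes are the classic targets of the transcription factor HSF1, and ER chaperones those of the unfolded protein response.

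Macrophages were grown from the bone marrow of female wild type C57BL/6 mice aged 6 to 8 weeks, by 7 days of culture with L929-conditioned medium. The age is that of the sample labels. The paper gives another age, and names the strain C57BL6/J. There were 2 arrays of untreated cells, 2 of cells given LPS for 4 h, a bacterial agonist of TLR4, and 2 of cells that received an inhibitor of the deubiquitinase USP7 at 10 µM for 30 min before the LPS (LPS+USP7i). The summary of the series gives the LPS dose as 100 ng/ml and the treatment protocol as 100 ng/µl. Whether cells with LPS alone received the solvent of the inhibitor is not stated, so an effect of the solvent and one of the inhibitor cannot be told apart. No group received the inhibitor without LPS.

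Each value below is a log2 signal after quantile normalization, with the probe of highest mean signal standing for its gene, and the arrays are given as replicates 1 and 2 of each group. The untreated arrays had 27467 and 27126 of 59305 spots well above background, the LPS arrays 25223 and 25002, and the LPS+USP7i arrays 26415 and 25290. Of the 73 genes, 56 were well above background on all 6 arrays and 13 on none. Over those 56 genes the difference between replicates had an SD of 0.17 for untreated arrays, 0.23 for LPS and 0.38 for LPS+USP7i. All 6 arrays lay on 1 slide in 1 scan, with each treatment in a slide row of its own, so an effect of the row and one of treatment cannot be told apart. Replicate 1 of each group lay in slide column 1 and replicate 2 in column 2. The deviations of replicate 1 from its group mean, over probes well above background on all 6 arrays, correlated at 0.468 between untreated and LPS, 0.398 between untreated and LPS+USP7i, and 0.421 between LPS and LPS+USP7i, and whether a slide column or a shared experiment lies behind this was not tested. The number of arrays limits the precision. The p-values rest on the spread between arrays of a group, pooled over the 3 groups and drawn toward the spread of all probes (limma).

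The label of the cells was checked against markers. All 8 macrophage markers were well above background on all 6 arrays, among them *Csf1r*, the receptor for the growth factor M-CSF, with a mean log2 signal of 17.67. The summed linear signal of this list was 727800 and 719100 without treatment, 737900 and 746400 after LPS, and 625000 and 585000 after LPS+USP7i. Of its genes, named here after their values were seen, *Cd14* (-1.33, adjusted p = 0.0176) and *Fcgr1* (-1.61, adjusted p = 0.0318) were lower with LPS+USP7i than with LPS. Markers of erythroid cells (0 of 3) and of fibroblasts (0 of 4) were not well above background on all arrays. Among markers of neutrophils 4 of 6 were, with *Elane* the brightest at a mean of 11.57, and among those of dendritic cells 1 of 3, *Ccr7*. *Zbtb46*, a further dendritic cell marker, was well above background on no untreated array and on both LPS arrays, and was at least 5.65-fold higher with LPS (adjusted p = 0.00435). Among 3 T cell markers *Cd3g* was above background on no array, while *Cd3e* lay between 9.08 and 9.55 and *Lck* rose with LPS by 4.23 (adjusted p = 0.0033). The summed linear signal of the T cell list was 775 and 666 without treatment, 2626 and 3100 after LPS, and 1095 and 1136 after LPS+USP7i. For the B cell list, with *Cd79a* the brightest, it was 224 and 56.8 without treatment, 516 and 111 after LPS, and 307 and 74.4 after LPS+USP7i. The part of such cells in the results was not tested, and in RNA from whole cultures fewer cells of a type and less RNA per cell cannot be told apart.

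The comparison of LPS with untreated cells asks what TLR4 stimulation does to the chaperone genes. That of LPS+USP7i with LPS asks what the inhibitor, given before LPS, changes. Whether such a change came through USP7 or through another effect of the compound was not tested. With LPS, members split: 7 of the 73 genes were higher than in untreated cells and 12 were lower (adjusted p under 0.05 over all probes, limma). That is 26.0% of the members, where 20.7% of all gene names passed, 7.99% higher and 12.7% lower. Among the lower members, *Dnajb13*, named after its values were seen, was read by a probe well above background on 0 arrays, so no change was measured for it, and it is kept in the counts because it passed. With the inhibitor on top of LPS, 11 members were higher and 4 lower than with LPS alone, which is 20.5% of them, where 9.71% of all gene names passed, 5.42% higher and 4.29% lower. Between LPS+USP7i and untreated cells, 14 members were higher and 9 lower, or 31.5%, where 14.9% of all gene names passed, 6.15% higher and 8.78% lower. Members are more often well above background than other genes: among the 18343 gene names that were so on both arrays of some group, 36.7%, 16.9% and 26.5% passed in the same order of comparisons, and among the 59 members that were so 30.5%, 25.4% and 39.0% did. The 3 comparisons share arrays in pairs, so their counts are not independent of each other. With 2 arrays per group, arrays of 2 groups often do not overlap. That held for 21194 of the 34844 gene names with LPS, 18156 with LPS+USP7i against LPS and 20299 with LPS+USP7i against untreated cells. In the same order it held for 51, 42 and 54 of the 73 members. A lack of overlap below describes the arrays and is not a test.

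**Figure D1:**
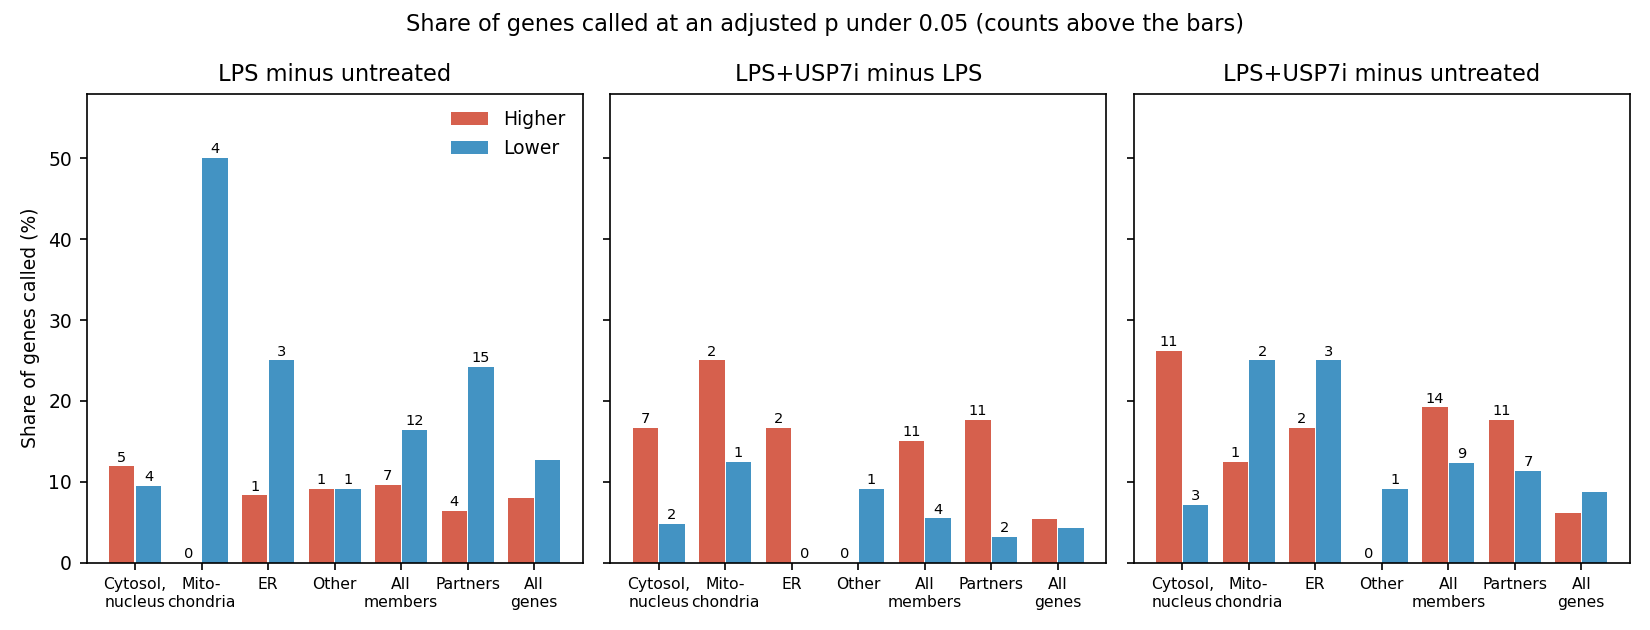
Bars give the share of genes (%) that passed the test as higher or lower in each of the 3 comparisons, for members by compartment, for the 62 partner genes and for all 34844 gene names, with counts above the bars. With LPS+USP7i against LPS, 7 of 42 cytosolic members were higher and 2 lower, where 5.42% and 4.29% of all gene names were.

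With LPS all 8 mitochondrial members lay below 0, from -0.62 to -0.05, and so did 9 of 12 ER members and 16 of 42 cytosolic and nuclear ones. With 75th percentile scaling *Dnajc15*, *Dnajc19* and *Hspa9* of the mitochondria and *Dnajb11* of the ER turned above 0, as did *Dnajc12*, *Dnajc7*, *Hsp90aa1*, *Hsp90ab1*, *Hspa12a* and *Hspa8* of the cytosol and nucleus. Past the threshold with LPS, 5 cytosolic and nuclear members were higher and 4 lower, 0 mitochondrial members were higher and 4 of 8 lower, and 1 ER member was higher and 3 of 12 lower. With the inhibitor against LPS alone, the counts of higher and lower genes were 7 and 2 in the cytosol and nucleus, 2 and 1 in mitochondria, and 2 and 0 in the ER. Between LPS+USP7i and untreated cells they were 11 and 3, 1 and 2, and 2 and 3. In the same order of comparisons 7.99%, 5.42% and 6.15% of all gene names were higher and 12.7%, 4.29% and 8.78% lower, and of the gene names well above background 13.8%, 9.55% and 10.8% were higher and 22.9%, 7.32% and 15.7% lower. The median log2 difference of all gene names was 0.00 in each comparison, and that of the 18343 gene names well above background was -0.19, 0.05 and -0.09. The mitochondrial members had medians of -0.48, -0.04 and -0.27, the ER members -0.28, -0.04 and -0.26, and the cytosolic members 0.05, 0.05 and 0.36.

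The LPS comparisons depend on how the arrays are scaled. When each array was instead scaled to its 75th percentile, the median of all gene names was 0.41 with LPS and 0.44 with LPS+USP7i above untreated cells, and 75.2% of the gene names that passed with LPS were higher, where it was 38.6% after quantile normalization. Among the 18343 gene names well above background the medians were 0.05 and 0.09. Under that scaling 24 members were higher and 8 lower with LPS, 18 of the higher ones cytosolic, where 46.6% of all gene names passed, and 0 of 8 mitochondrial members passed in either direction (limma). Of those 24, 9 were read by probes well above background on no array, 5 of them cytosolic, as was *Dnajb13* among the 8 lower. Read against the shifted median of all gene names, the 12 members lower and the 7 higher with LPS after quantile normalization stayed on the same side of it. That says little of members well above background, as the median of such gene names was 0.05 and 5 of the lower calls were lost. With the inhibitor against LPS alone the median of all gene names was 0.00 under both scalings, and 9 members were higher and 3 lower with 75th percentile scaling, where 8.96% of all gene names passed. Between probes, 27 members were read by more than 1, and all probes gave the same call in 18 of them with LPS, in 19 for LPS+USP7i against LPS and in 20 for LPS+USP7i against untreated cells, with opposite calls in 0.

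**Figure D2:**
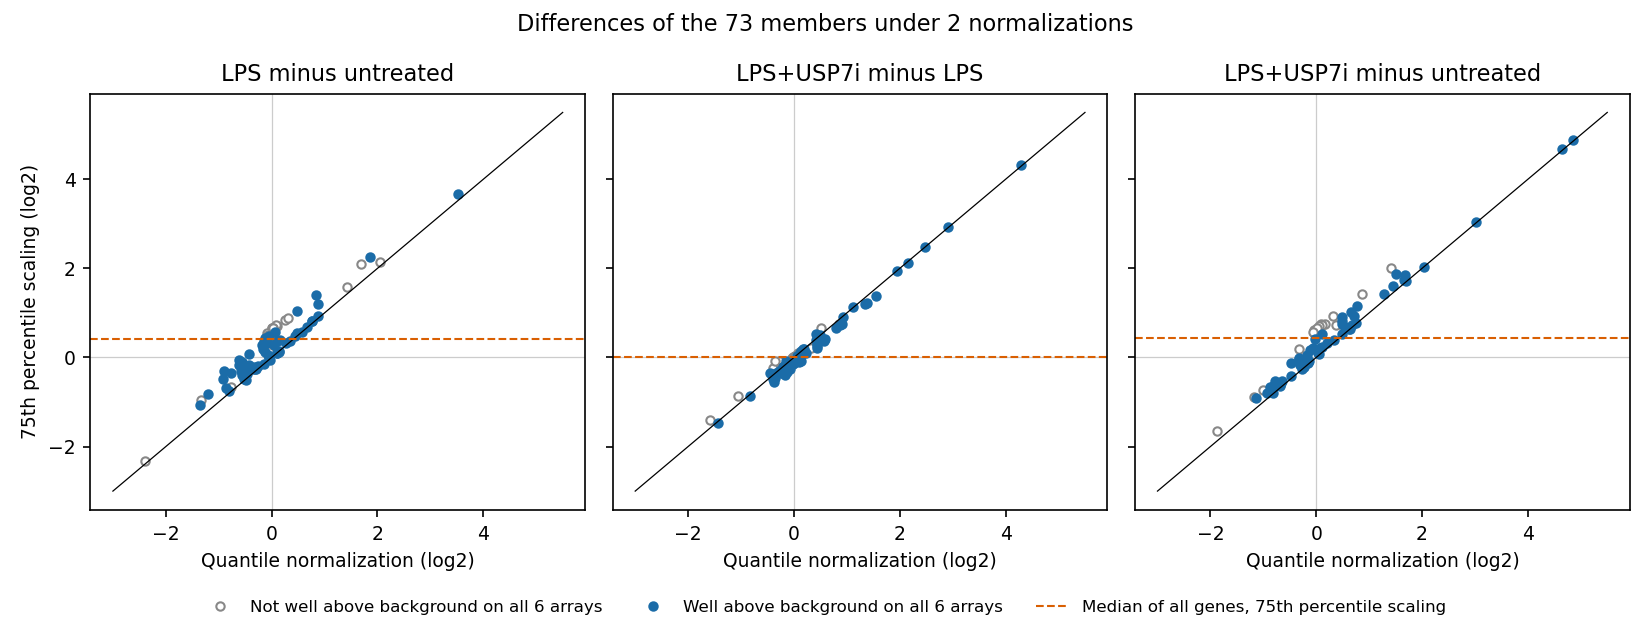
Each point is 1 of the 73 members, filled where well above background on all 6 arrays, with its log2 difference after quantile normalization on the x axis and after 75th percentile scaling on the y axis, in 1 panel per comparison. In the comparisons with untreated cells most points lie above the diagonal, where the median of all gene names moved to 0.41 and 0.44, and in LPS+USP7i against LPS it was 0.00.

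**Figure D3:**
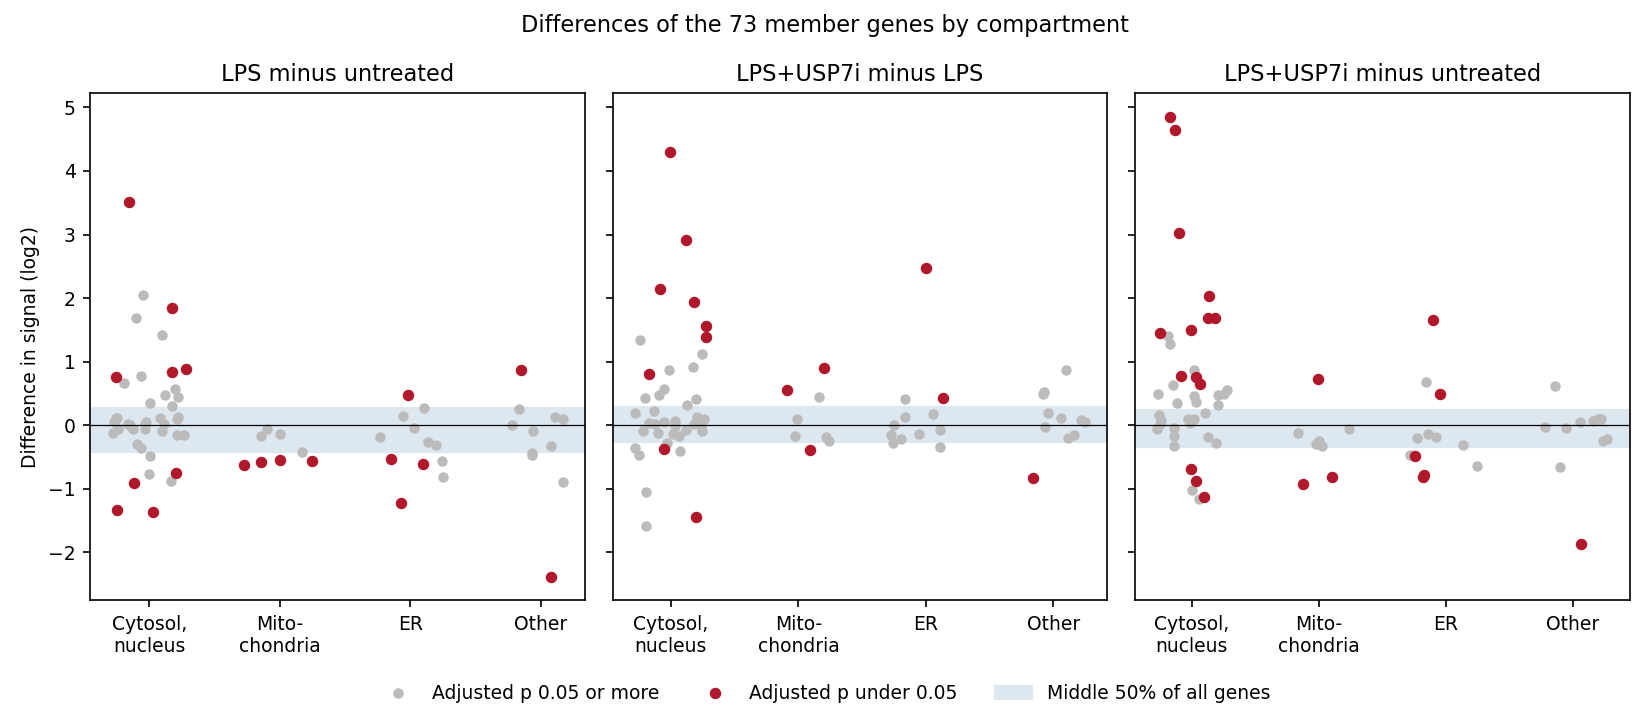
Log2 differences of the 73 members in the 3 comparisons, by compartment, with red points for genes that passed the test, grey points for the others and a band for the middle 50% of all gene names. With LPS+USP7i against LPS the members reach from -1.58 to 4.30, and the highest is *Hspb1*.

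The 7 cytosolic members higher with the inhibitor than with LPS alone were *Hspb1*, *Dnajb4*, *Hsph1*, *Hspa2*, *Hsp90aa1*, *Dnajb1* and *Hsp90ab1*, most of them known as stress-inducible. LPS raised none of these after quantile normalization, and *Hsp90aa1* and *Hsp90ab1* with 75th percentile scaling. Heat shock genes carry heat shock elements, in which HSF1 binds inverted repeats of the unit GAA. Windows from 250 bases before to 50 bases after a start were available from RefSeq (GRCm38.p6) for 59 of the 73 members. They were searched on both strands for 2 adjoining units, GAANNTTC or TTCNNGAA, and for 3 units, GAANNTTCNNGAA or TTCNNGAANNTTC, which overlap the 2-unit form. The 2-unit form was found in 15.1% of all 32851 windows and in 22.4% of the 76 windows of members, and the 3-unit form in 0.603% and 7.89%. By gene, 15 of the 59 members (25.4%) hold the 2-unit form, where 17.0% of all genes with a window do. The 3-unit form is held by 4 members (6.78%), *Dnajb6*, *Hspd1*, *Hspe1* and *Hsph1*, where 0.662% of all genes with a window hold it. Windows of members repeat some sites: the same *Dnajb6* stretch lies before 2 starts, and *Hspd1* and *Hspe1* share a stretch. Of the 11 members higher with the inhibitor than with LPS alone, 8 had a window, and 4 of these hold the 2-unit form: *Dnajb4*, *Hspb1*, *Hspd1* and *Hsph1*. Of the 48 members with a window that did not pass there 11 (22.9%) hold it, and of the 7 members higher with LPS than in untreated cells 3 do. A match is a run of letters, and binding was not measured.

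*Hspb1* encodes the small heat shock protein HSP25. Its window, on the + strand, holds 2 matches to the 2-unit form, shown in capitals in chr5:135887777-135887854, and is printed because this gene moved most with the inhibitor among the members.
Hspb1: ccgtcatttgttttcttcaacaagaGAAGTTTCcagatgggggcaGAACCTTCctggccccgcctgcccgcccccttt
The *Hspb1* signal was 5.62 and 5.94 without treatment, 5.78 and 6.48 after LPS, and 10.71 and 10.15 after LPS+USP7i. The arrays of LPS and untreated cells overlap, and both arrays with the inhibitor stand far above the other 4. *Hspb1* was 19.7-fold higher with LPS+USP7i than with LPS (log2 difference 4.30, SE 0.34, adjusted p = 0.0151) and 25-fold higher than in untreated cells (4.65, SE 0.34, adjusted p = 0.00788). Over the 15 alternatives, which leave out the rule of a log2 difference of at least 1, the first difference ranged from 3.42 to 4.65. The second ranged from 3.56 to 4.93, and both were lowest with normexp and an offset of 50. Among the 15, fitting the 2 groups alone and leaving out an array of the group not compared are nearly the same fit, not separate checks. The difference between LPS and untreated cells was 0.35 (adjusted p = 0.616). The other 6 members of the small heat shock protein family (*Hspb2*, *Hspb3*, *Hspb6*, *Hspb7*, *Hspb8* and *Hspb9*) passed in none of the 3 comparisons after quantile normalization, and of these *Hspb6* and *Hspb9* alone were well above background on all arrays.

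*Dnajb4* encodes a J protein that serves cytosolic HSP70. Before the second of its listed starts, on the - strand, chr3:152193846-152193870 holds the 2-unit form, in capitals, within the last 25 bases before that start.
Dnajb4: ttcgttcgctgTTCTAGAAagtaca
Its signal was 7.19 and 7.90 without treatment, 7.32 and 7.99 after LPS, and 10.39 and 10.75 after LPS+USP7i. As with *Hspb1*, the untreated and LPS arrays overlap and both arrays with the inhibitor are above them. *Dnajb4* was 7.54-fold higher with LPS+USP7i than with LPS (log2 difference 2.91, SE 0.37, adjusted p = 0.0285) and 8.12-fold higher than in untreated cells (3.02, adjusted p = 0.0181). With LPS alone the difference was 0.11 (adjusted p = 0.956).

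*Hsph1* encodes HSP110, the nucleotide exchange factor of cytosolic HSP70, and its window holds both forms of the heat shock element, in part past the start. Its signal was 11.54 and 11.47 without treatment, 10.73 and 10.53 after LPS, and 13.13 and 12.43 after LPS+USP7i. The 3 groups do not overlap, with LPS lowest and LPS+USP7i highest. *Hsph1* was 4.44-fold higher with LPS+USP7i than with LPS (log2 difference 2.15, SE 0.26, adjusted p = 0.027), while its differences from untreated cells missed the threshold with LPS (-0.87, adjusted p = 0.116) and with LPS+USP7i (1.28, adjusted p = 0.0574). Of the 15 alternatives 5 called the first of these lower. They include the 2 groups alone and leaving out either LPS+USP7i array, which are nearly the same fit. The second was called higher by 7 of the 15. Its second probe read 2.24 for the inhibitor (adjusted p = 0.0328). The HSP110 relatives *Hspa4* and *Hspa4l* passed in no comparison.

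Both cytosolic HSP90 genes were higher with the inhibitor. The inducible gene *Hsp90aa1* had a signal of 13.67 and 13.73 without treatment, 13.61 and 13.69 after LPS, and 15.32 and 15.10 after LPS+USP7i. Untreated and LPS arrays overlap, and both LPS+USP7i arrays lie above them, by 1.56 over LPS (SE 0.10, adjusted p = 0.0126) and 1.5 over untreated cells (adjusted p = 0.00708). The constitutive gene *Hsp90ab1* read 15.86 and 15.85, then 15.78 and 15.63, then 16.62 and 16.39 in the same order of groups. It was higher with LPS+USP7i by 0.80 than with LPS (adjusted p = 0.0335) and by 0.65 than in untreated cells (adjusted p = 0.0378). For LPS against untreated cells the sign of both genes turns with the scaling, from -0.05 to 0.48 in *Hsp90aa1* (adjusted p = 0.856 and 0.0114) and from -0.15 to 0.38 in *Hsp90ab1* (adjusted p = 0.497 and 0.0261), where the median of all gene names also moved, to 0.41, and that of gene names well above background to 0.05.

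*Dnajb1*, the main stress-inducible partner of cytosolic HSP70, went down with LPS and up with the inhibitor. Its signal was 13.14 and 13.09 without treatment, 12.12 and 12.29 after LPS, and 13.80 and 13.38 after LPS+USP7i. No group overlaps another. LPS lowered it by a log2 difference of -0.91 (SE 0.17, adjusted p = 0.0356), and with LPS+USP7i it was 1.39 above LPS (adjusted p = 0.0265) and 0.48 above untreated cells, which did not pass (adjusted p = 0.182). Neither call of *Dnajb1* passed when arrays were paired by replicate number. With 75th percentile scaling *Dnajb1* differed by -0.48 with LPS and by 1.23 from LPS to LPS+USP7i. It then also passed between LPS+USP7i and untreated cells (0.75, adjusted p = 0.0098). The constitutive HSP70 gene *Hspa8*, the housekeeping HSP70 of the cytosol, passed in no comparison. Its signal was 17.15 and 16.91 without treatment, 17.02 and 16.80 after LPS, and 17.39 and 16.88 after LPS+USP7i, so that all groups overlap.

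*Hspa1a*, the stress-inducible HSP70, was the member most raised by LPS. Its window on the - strand holds 1 match to the 2-unit form, in capitals in chr17:34972228-34972285, shown because this gene had the largest LPS response of the members.
Hspa1a: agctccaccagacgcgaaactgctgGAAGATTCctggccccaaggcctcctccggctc
The *Hspa1a* probe read 8.24 and 8.36 without treatment, 11.69 and 11.95 after LPS, and 13.88 and 12.43 after LPS+USP7i. Both LPS arrays stand above the untreated ones, and both LPS+USP7i arrays above the LPS ones, though the LPS+USP7i replicates lie further apart than those of the other groups. It was 11.4-fold higher with LPS (log2 difference 3.52, SE 0.52, adjusted p = 0.0213) and 28.9-fold higher with LPS+USP7i (4.86, adjusted p = 0.0143) than in untreated cells. The latter difference was 4.13 without LPS+USP7i replicate 1 and 5.58 without LPS+USP7i replicate 2. The step from LPS to LPS+USP7i was 1.34 (adjusted p = 0.252), which did not pass. *Hspa2*, an HSP70 best known from male germ cells and chosen here after its values were seen, read 8.02 and 7.90 without treatment, 8.25 and 7.87 after LPS, and 10.38 and 9.62 after LPS+USP7i. Its untreated and LPS arrays overlap, and it was 1.94 higher with LPS+USP7i than with LPS (SE 0.31, adjusted p = 0.0427) and 2.04 higher than in untreated cells (adjusted p = 0.0283).

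**Figure D4:**
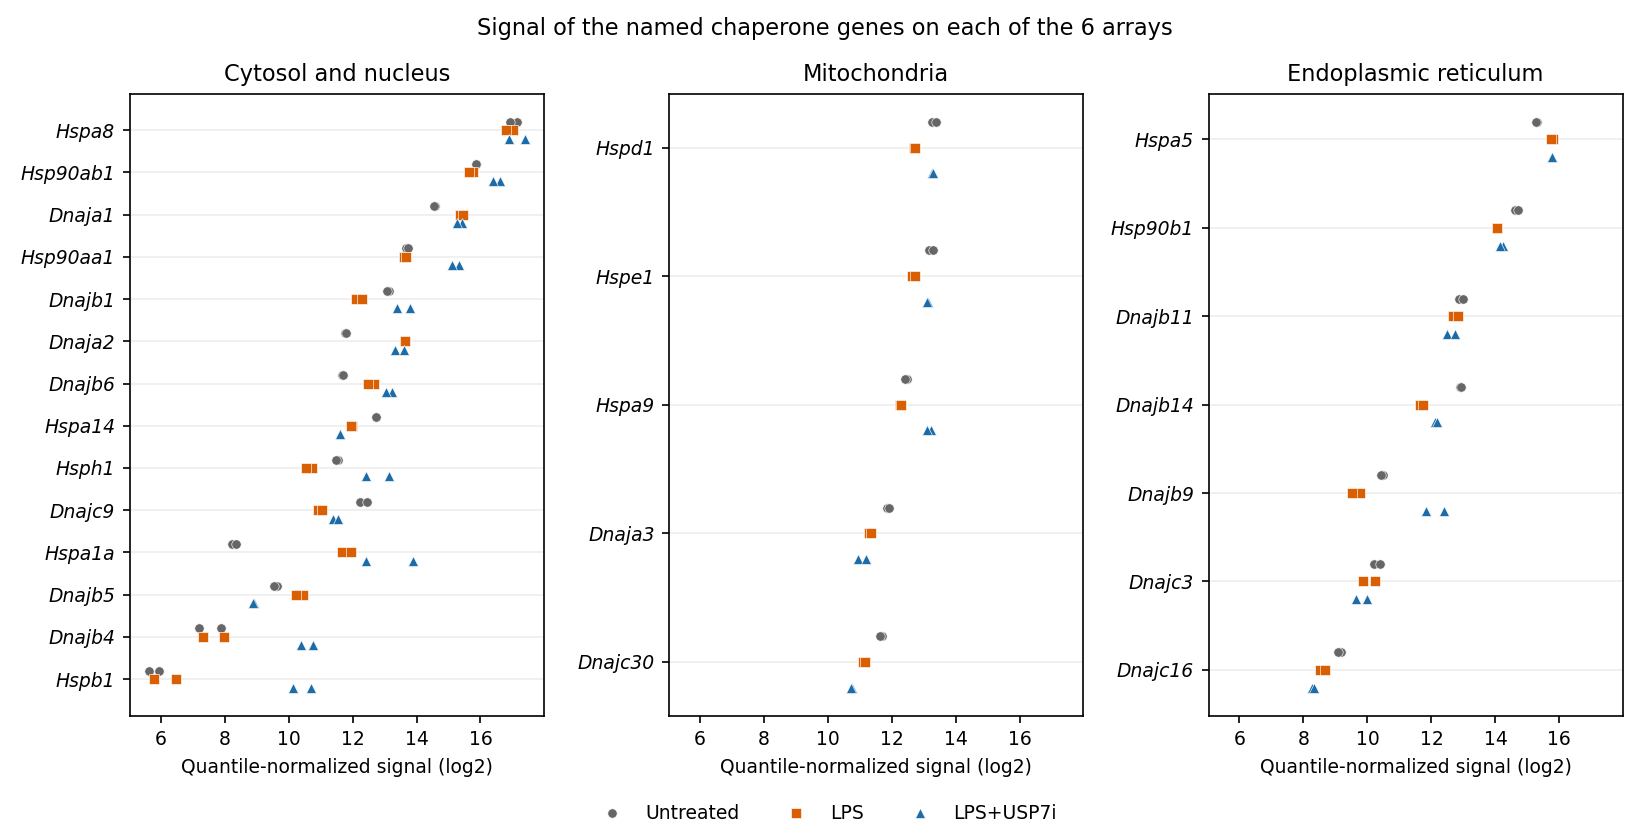
Quantile-normalized log2 signal of the named genes on each of the 6 arrays, by compartment, with 1 symbol per array, whose shape and colour give the treatment. *Hspb1* moves from between 5.62 and 6.48 without the inhibitor to 10.15 and 10.71 with it, and *Hspa1a* from 8.24 and 8.36 in untreated cells to 11.69 and 11.95 with LPS.

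Further J proteins of the cytosol rose with LPS and kept a higher signal with the inhibitor. *Dnaja2*, a type A partner of HSP70, read 11.78 and 11.80 without treatment, 13.64 and 13.63 after LPS, and 13.33 and 13.62 after LPS+USP7i. The untreated arrays lie apart from the other 4, below them. *Dnaja2* was 3.60-fold higher with LPS (log2 difference 1.85, SE 0.12, adjusted p = 0.00435) and 3.21-fold higher with LPS+USP7i (1.68, adjusted p = 0.00742) than in untreated cells, with -0.16 between the treated groups (adjusted p = 0.55). *Dnaja1*, of the same type, read 14.59 and 14.53, then 15.37 and 15.44, then 15.41 and 15.26. It was 0.84 higher with LPS (SE 0.08, adjusted p = 0.0086) and 0.77 higher with LPS+USP7i (adjusted p = 0.0141), and the treated groups overlap. Its second probe, at 1.24 and 0.76 in these comparisons, passed in neither.

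*Dnajb6* encodes a J protein known for holding back aggregation of polyglutamine proteins. Its 3-unit heat shock element, in capitals, is printed as an example of the longer form, from chr5:29735844-29735872 on the + strand.
Dnajb6: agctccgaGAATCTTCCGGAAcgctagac
The *Dnajb6* signal was 11.68 and 11.69 without treatment, 12.66 and 12.47 after LPS, and 13.22 and 13.06 after LPS+USP7i. The groups form 3 steps with no overlap. It rose by 0.88 with LPS (SE 0.10, adjusted p = 0.0121) and stood 1.45 above untreated cells with LPS+USP7i (adjusted p = 0.00744). The difference between LPS+USP7i and LPS was 0.58 (adjusted p = 0.0525), and its 3 other probes read 0.70, -0.14 and -0.32, of which the first passed (adjusted p = 0.04). *Dnajb2* and *Dnajc21*, chosen after their values were seen, were higher in LPS+USP7i than in untreated cells, by 1.69 (adjusted p = 0.018) and 0.76 (adjusted p = 0.0316). In the other comparisons neither gene passed by its brightest probe, but the second *Dnajb2* probe did, at 1.26 with LPS (adjusted p = 0.00557) and 0.77 for LPS+USP7i against LPS (adjusted p = 0.0277). No further *Dnajc21* probe passed between LPS+USP7i and untreated cells, the lowest at 0.54. The *Dnajc21* call was lost with arrays paired by replicate number.

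Of the 42 cytosolic and nuclear members, 2 were lower with LPS+USP7i than with LPS (4.76%), *Dnajb5* and *Hspa14*, where 4.29% of all gene names were. *Dnajb5*, a J protein related to *Dnajb4*, read 9.64 and 9.55 without treatment, 10.45 and 10.25 after LPS, and 8.91 and 8.90 after LPS+USP7i. It is high with LPS and lowest with LPS+USP7i, with no overlap among the 3 groups. LPS raised it by 0.76 (SE 0.10, adjusted p = 0.0146), and with LPS+USP7i it was lower than with LPS (log2 difference -1.44, adjusted p = 0.0129) and than in untreated cells (-0.69, adjusted p = 0.0237). Its second probe was well above background on 1 array and passed in no comparison, and a mean over both probes passed in none either. *Dnajc24* and *Hspa12b*, chosen after their values were seen, did not pass by their brightest probes. The second *Dnajc24* probe was lower with LPS+USP7i than in untreated cells (-0.75, adjusted p = 0.0355), and the second *Hspa12b* probe passed with LPS and for LPS+USP7i against LPS but was well above background on 0 arrays.

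*Hspa14*, an HSP70-like protein that binds ribosomes, read 12.74 and 12.72 without treatment, 11.99 and 11.96 after LPS, and 11.60 and 11.60 after LPS+USP7i. The groups fall in that order with no overlap. Its log2 differences were -0.76 with LPS (SE 0.05, adjusted p = 0.00517), -0.38 between LPS+USP7i and LPS (adjusted p = 0.0364), and -1.13 between LPS+USP7i and untreated cells (adjusted p = 0.00543). With 75th percentile scaling they were -0.36, -0.54 and -0.9 in the same order. The call between LPS+USP7i and LPS was lost with arrays paired by replicate number. *Dnajc9*, a nuclear J protein that chaperones histones, read 12.25 and 12.44, then 10.93 and 11.04, then 11.38 and 11.56. Untreated cells are highest and LPS lowest, with no overlap. *Dnajc9* was lower with LPS (-1.36, SE 0.11, adjusted p = 0.00637) and with LPS+USP7i (-0.88, adjusted p = 0.02) than in untreated cells, and the step of 0.48 between the treated groups did not pass (adjusted p = 0.0902).

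The chaperonin pair works in mitochondria. HSP60 (*Hspd1*) and its lid HSP10 (*Hspe1*) are transcribed in opposite directions from a shared promoter, and that stretch holds 2 overlapping 3-unit heat shock elements, in capitals, in chr1:55088053-55088082, written on the + strand as read by *Hspe1*.
Hspe1: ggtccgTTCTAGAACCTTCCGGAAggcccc
*Hspd1* read 13.26 and 13.38 without treatment, 12.67 and 12.73 after LPS, and 13.25 and 13.27 after LPS+USP7i. Its LPS arrays are below the other 4, and the LPS+USP7i arrays overlap the untreated ones. *Hspd1* was lower with LPS (log2 difference -0.62, SE 0.07, adjusted p = 0.0115), higher with LPS+USP7i than with LPS (0.56, adjusted p = 0.0278), and did not pass between LPS+USP7i and untreated cells (-0.06, adjusted p = 0.713). *Hspe1* read 13.15 and 13.29, then 12.61 and 12.72, then 13.12 and 13.09, again lowest with LPS. Its difference was -0.56 with LPS (SE 0.08, adjusted p = 0.0218) and 0.44 with the inhibitor against LPS (adjusted p = 0.0608), which missed the threshold. Of its 2 other probes, 1 read -0.55 with LPS (adjusted p = 0.012) and 0.45 with the inhibitor against LPS (adjusted p = 0.0334), and the other -0.08 with LPS (adjusted p = 0.633) and did not pass with the inhibitor either (adjusted p = 0.113). With 75th percentile scaling the LPS differences of *Hspd1* and *Hspe1* were -0.16 (adjusted p = 0.31) and -0.10 (adjusted p = 0.514), where the median of all gene names was 0.41 and that of gene names well above background 0.05, and the *Hspd1* step from LPS to LPS+USP7i was 0.38 (adjusted p = 0.15).

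*Hspa9* encodes mortalin, the HSP70 of the matrix and of protein import. It read 12.47 and 12.40 without treatment, 12.24 and 12.27 after LPS, and 13.22 and 13.09 after LPS+USP7i. Both arrays with the inhibitor stand above the other 4. *Hspa9* was higher with LPS+USP7i by 0.90 than with LPS (SE 0.07, adjusted p = 0.0158) and by 0.72 than in untreated cells (adjusted p = 0.013), and its difference with LPS was -0.17 (adjusted p = 0.237), which turns to 0.20 with 75th percentile scaling (adjusted p = 0.112). By its brightest probe, none of the 5 J proteins of mitochondria was higher in any of the 3 comparisons. *Dnaja3*, its matrix J protein, read 11.85 and 11.92, then 11.28 and 11.35, then 10.94 and 11.20, highest in untreated cells. It was lower with LPS (-0.57, SE 0.11, adjusted p = 0.0404) and with LPS+USP7i (-0.82, adjusted p = 0.0225). *Dnajc30*, which read 11.70 and 11.62, then 11.09 and 11.15, then 10.75 and 10.71, fell at each step: -0.54 with LPS (SE 0.06, adjusted p = 0.0126), -0.39 from LPS to LPS+USP7i (adjusted p = 0.0464) and -0.93 between the outer groups (adjusted p = 0.00733). The call from LPS to LPS+USP7i was lost with arrays paired by replicate number and with 75th percentile scaling. The other 3 mitochondrial members (*Dnajc11*, *Dnajc15* and *Dnajc19*), of cristae organization and protein import, passed in no comparison by their brightest probes. A further probe of *Dnajc19* was higher with LPS (1.45, adjusted p = 0.0127), and so was one of *Dnajc11* (0.45, adjusted p = 0.0187), which was also higher with LPS+USP7i than in untreated cells (0.39, adjusted p = 0.0332).

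ER chaperone genes carry the ER stress element, searched as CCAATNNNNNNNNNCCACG on both strands. It was found in 0.119% of all 32851 windows and in 3 of the 59 members with a window, *Hspa5*, *Hsp90b1* and *Dnajc3*, each an ER protein. *Hspa5* is BiP, the HSP70 of the ER lumen, *Hsp90b1* is GRP94, its HSP90, and *Dnajc3* is p58IPK, a J protein that works with BiP. Their matches are in capitals, shown to set these genes of a shared element side by side: *Hspa5* on the + strand of chr2:34772000-34772068, *Hsp90b1* on the - strand of chr10:86705532-86705681 with a match on each strand, and *Dnajc3* on the + strand of chr14:118937802-118937870.
Hspa5: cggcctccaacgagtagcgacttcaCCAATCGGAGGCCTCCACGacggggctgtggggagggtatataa
Hsp90b1: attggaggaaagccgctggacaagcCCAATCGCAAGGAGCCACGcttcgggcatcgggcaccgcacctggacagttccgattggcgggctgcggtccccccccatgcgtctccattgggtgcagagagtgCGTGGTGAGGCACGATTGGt
Dnajc3: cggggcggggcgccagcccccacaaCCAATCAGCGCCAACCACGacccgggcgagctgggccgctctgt
These 3 genes of a shared element did not move together. *Hspa5* read 15.31 and 15.27 without treatment, 15.80 and 15.73 after LPS, and 15.78 and 15.77 after LPS+USP7i, and the treated arrays overlap each other above the untreated ones. It was 0.48 higher with LPS (SE 0.06, adjusted p = 0.0144) and 0.48 higher with LPS+USP7i (adjusted p = 0.0185) than in untreated cells, and 0.01 separated the treated groups (adjusted p = 0.991). With 75th percentile scaling *Hspa5* was higher than in untreated cells by 1.04 with LPS and 0.91 with LPS+USP7i. *Hsp90b1* went the other way, from 14.63 and 14.70 to 14.06 and 14.04 after LPS and 14.23 and 14.14 after LPS+USP7i. Its untreated arrays lie above the other 4. It was lower with LPS (-0.61, SE 0.07, adjusted p = 0.0107) and with LPS+USP7i (-0.48, adjusted p = 0.0235), differences that shrink to -0.05 (adjusted p = 0.678) and -0.12 (adjusted p = 0.317) with 75th percentile scaling. *Dnajc3* passed in no comparison, at 10.21 and 10.38, then 9.86 and 10.22, then 9.66 and 10.00, and neither did *Dnajb11*, the lumenal J protein ERdj3.

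*Dnajb9*, known as ERdj4, is a lumenal J protein that brings BiP to the stress sensor IRE1. It read 10.48 and 10.44 without treatment, 9.76 and 9.52 after LPS, and 12.40 and 11.84 after LPS+USP7i. The groups do not overlap, with LPS lowest and the inhibitor highest. *Dnajb9* was 5.57-fold higher with LPS+USP7i than with LPS (log2 difference 2.48, SE 0.22, adjusted p = 0.0171) and 3.17-fold higher than in untreated cells (1.66, adjusted p = 0.021). The LPS difference of -0.81 did not pass (adjusted p = 0.0882). Its second probe also passed with the inhibitor, at 3.23 (adjusted p = 0.0114).

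Among J proteins of the ER membrane, *Dnajb14* read 12.90 and 12.92 without treatment, 11.65 and 11.75 after LPS, and 12.10 and 12.16 after LPS+USP7i. Its untreated arrays are highest and its LPS arrays lowest. *Dnajb14* was lower with LPS (-1.21, SE 0.07, adjusted p = 0.00374) and with LPS+USP7i (-0.78, adjusted p = 0.01) than in untreated cells. The step of 0.44 from LPS to LPS+USP7i passed (adjusted p = 0.0402), but its second probe read -0.45 there (adjusted p = 0.127), and the mean over both probes was 0.00 (adjusted p = 0.993). This call was also lost with arrays paired by replicate number. *Dnajc16* read 9.16 and 9.08, then 8.51 and 8.66, then 8.28 and 8.34, highest in untreated cells. It was lower with LPS (-0.53, SE 0.08, adjusted p = 0.0238) and with LPS+USP7i (-0.81, adjusted p = 0.013). The other 5 ER members (*Dnajb12*, *Dnajc1*, *Dnajc10*, *Dnajc14* and *Hspa13*) passed in none of the 3 comparisons by their brightest probes. The second *Dnajc14* probe was lower with LPS+USP7i than with LPS (-1.0, adjusted p = 0.0223) and than in untreated cells (-1.11, adjusted p = 0.0119).

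Of the 11 members of other sites, 2 passed by their brightest probes. *Dnajc13*, a J protein of endosomes, read 9.39 and 9.52 without treatment, 10.38 and 10.28 after LPS, and 9.40 and 9.60 after LPS+USP7i. Its LPS arrays stand above the other 4, which overlap. *Dnajc13* was 0.88 higher with LPS (SE 0.11, adjusted p = 0.0133), and with LPS+USP7i it was lower than with LPS (-0.83, adjusted p = 0.0288). The latter call was lost with arrays paired by replicate number. *Dnajc28* was well above background in untreated cells alone, at 5.45 and 5.53, against 2.80 and 3.41 after LPS and 3.97 and 3.27 after LPS+USP7i. With each LPS array set to the lowest signal that counted there as well above background, and both arrays averaged, it was at least 2-fold lower with LPS (adjusted p = 0.0187). By the same reckoning on the LPS+USP7i arrays it was at least 2.31-fold lower with LPS+USP7i (adjusted p = 0.0409) than in untreated cells, a call lost with arrays paired by replicate number. *Dnajc5* and *Dnajc25*, chosen after their values were seen, passed by further probes: 2 probes of *Dnajc5* were higher with LPS (0.55 and 0.62, adjusted p = 0.0153 and 0.0499), with LPS+USP7i than with LPS (0.73 and 0.84, adjusted p = 0.0193 and 0.0418) and with LPS+USP7i than in untreated cells (1.27 and 1.46, adjusted p = 0.00606 and 0.0108), while its brightest probe read -0.90 with LPS (adjusted p = 0.0653), and a probe of *Dnajc25* was higher with LPS (0.43, adjusted p = 0.0292).

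**Figure D5:**
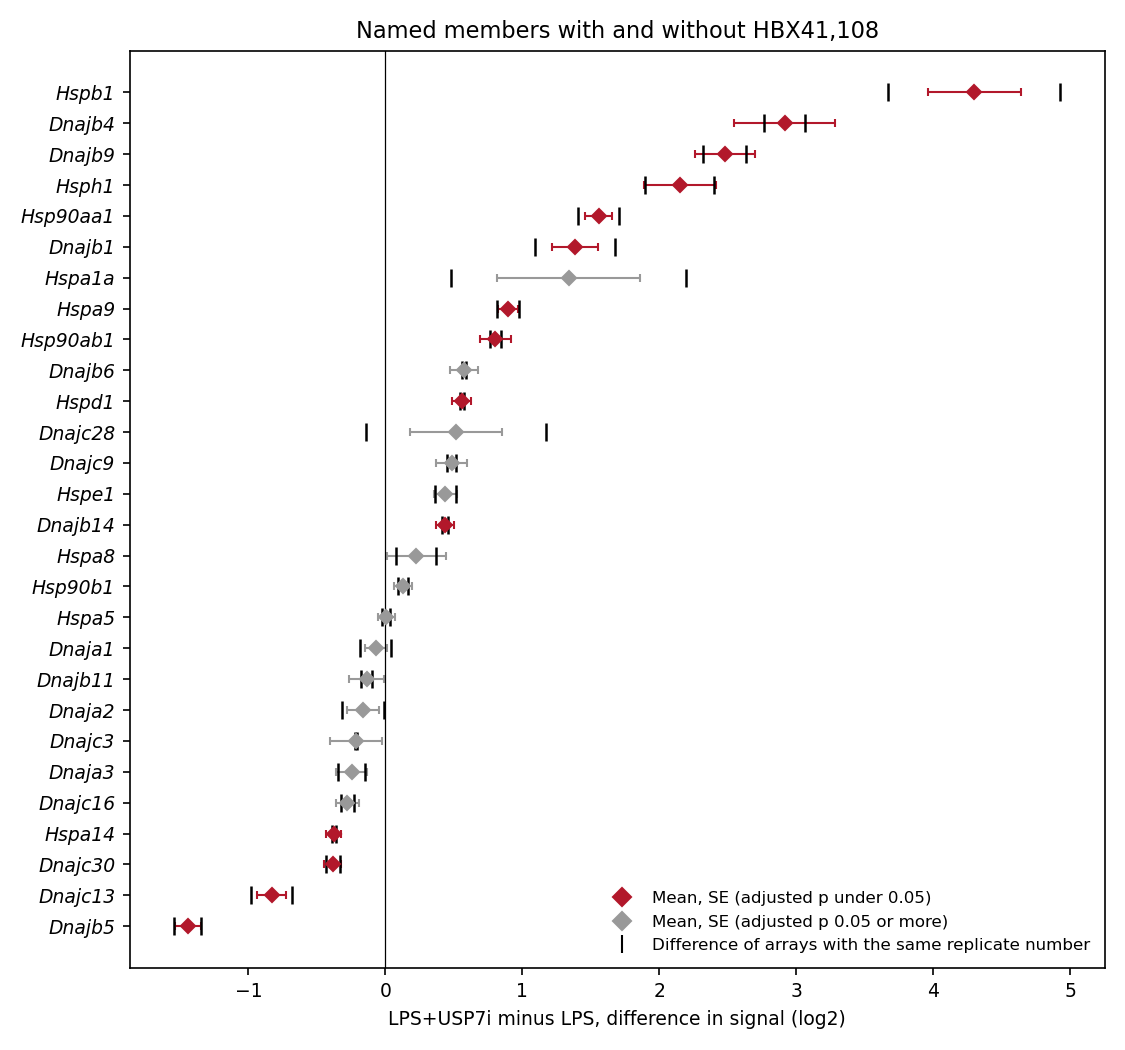
For 28 named members, the mean log2 difference between LPS+USP7i and LPS (diamonds, red where it passed the test) with its SE, and the differences between arrays that share a replicate number (ticks). *Hspb1* reads 4.93 and 3.67, *Dnajb9* 2.63 and 2.32, *Hspa1a* 2.20 and 0.48, and *Dnajb5* -1.54 and -1.34 for replicates 1 and 2.

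A list of 62 partner genes holds the regulators and helpers of these chaperones outside the symbol rule. With LPS 4 of them were higher and 15 lower than in untreated cells, with LPS+USP7i 11 were higher and 2 lower than with LPS, and 11 were higher and 7 lower than in untreated cells. These are 30.6%, 21.0% and 29.0% of the partners, where 20.7%, 9.71% and 14.9% of all gene names passed, and 36.7%, 16.9% and 26.5% of those well above background, as 61 of the 62 partners were on all 6 arrays. The heat shock factor gene *Hsf1* passed in no comparison, at 9.84 and 9.80 without treatment, 10.14 and 10.11 after LPS, and 9.93 and 9.75 after LPS+USP7i. *Hsf2*, the second heat shock factor, read 8.35 and 8.40, then 8.59 and 8.60, then 9.74 and 9.76. It is high in both arrays with the inhibitor, by 1.15 over LPS (SE 0.06, adjusted p = 0.0106) and 1.38 over untreated cells (adjusted p = 0.00481). HSF1 is known to be governed at the protein level, which these arrays do not read.

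*Bag3*, the stress-inducible exchange factor of HSP70, read 12.41 and 12.53 without treatment, 11.72 and 11.71 after LPS, and 13.48 and 13.13 after LPS+USP7i. Like *Dnajb1* it is lowest with LPS and highest with LPS+USP7i, with no overlap. It was lower with LPS (-0.75, SE 0.14, adjusted p = 0.0364) and 1.59 higher with LPS+USP7i than with LPS (adjusted p = 0.0171). *Bag4* was lower with LPS (-1.09, adjusted p = 0.00539) and 0.58 higher with LPS+USP7i than with LPS (adjusted p = 0.0336). *Stip1* (HOP), which passes clients from HSP70 to HSP90, was 1.49 higher with LPS (adjusted p = 0.0134), and -0.67 separated LPS+USP7i from LPS (adjusted p = 0.123). *Ptges3*, the HSP90 cochaperone p23, was 0.31 higher with LPS (adjusted p = 0.0488) and 0.89 higher with LPS+USP7i than with LPS (adjusted p = 0.0139). *Cacybp* was higher with LPS as well, by 0.93 (adjusted p = 0.0177), and so was the chaperonin subunit *Cct3*, by 0.81 (adjusted p = 0.0129). Of 13 cochaperones of HSP70 or HSP90, 3 were higher and 2 lower with LPS, and of 8 chaperonin subunits 1 and 0. All 37 cytosolic partners gave 4 higher (10.8%) and 7 lower (18.9%), where 7.99% and 12.7% of all gene names passed. Of gene names well above background, 13.8% were higher and 22.9% lower with LPS. *Cdc37*, which brings kinases to HSP90, was lower with LPS+USP7i than with LPS (-0.38, adjusted p = 0.0461), and *Chordc1* passed between LPS+USP7i and untreated cells alone (0.48, adjusted p = 0.0225). Pairing arrays by replicate number ended the LPS calls of *Bag3* and *Ptges3*, and those of *Bag4* and *Cdc37* between LPS+USP7i and LPS.

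Beside the mitochondrial chaperones, *Grpel1* and *Grpel2*, the latter named after its values were seen, encode the exchange factors of mortalin. They were higher with LPS+USP7i than with LPS, *Grpel1* by 0.67 (adjusted p = 0.0255) and *Grpel2* by 1.14 (adjusted p = 0.0137), as *Hspa9* was. As a mean over its probes *Grpel1* read 0.03 (adjusted p = 0.995), and its call held under 6 of 15 alternatives, which did not include pairing by replicate number. *Hscb*, a J protein of iron-sulfur cluster assembly, was lower with LPS (-1.78, SE 0.15, adjusted p = 0.00633) and with LPS+USP7i (-1.07, adjusted p = 0.0228) than in untreated cells. The latter call was lost with arrays paired by replicate number. *Trap1*, the mitochondrial HSP90, passed in no comparison.

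In the ER, 18 partners gave 0 higher and 6 lower with LPS, 1 higher and 1 lower for LPS+USP7i against LPS, and 1 higher and 5 lower for LPS+USP7i against untreated cells. That is 33.3%, 11.1% and 33.3% of them, beside the 36.7%, 16.9% and 26.5% of gene names well above background. The higher one is *Ern1*, the gene of the stress sensor IRE1, at 8.55 and 8.17 without treatment, 8.02 and 7.68 after LPS, and 9.95 and 9.56 after LPS+USP7i. Both arrays with the inhibitor lie above the other 4, by 1.91 over LPS (SE 0.23, adjusted p = 0.0268) and 1.39 over untreated cells (adjusted p = 0.0353). As a mean over its probes *Ern1* was 0.80 over LPS and 0.52 over untreated cells, and each call held under 8 of 15 alternatives. *Xbp1*, whose mRNA IRE1 splices, was lower with LPS+USP7i than in untreated cells (-1.04, adjusted p = 0.0208), and *Herpud1*, of ER-associated degradation, was lower with LPS+USP7i than with LPS (-0.76, adjusted p = 0.0465). Pairing arrays by replicate number ended the *Herpud1* call. *Ddit3*, the gene of CHOP, read 10.82 and 10.86, then 9.60 and 9.71, then 11.21 and 10.49, and passed in no comparison, nor did *Hyou1*. *Ddit3* read -1.19 with LPS (adjusted p = 0.0547), and 9 of 15 alternatives called it lower. They include the 2 groups alone and leaving out either LPS+USP7i array, which are nearly the same fit. Beside the higher *Dnajb9* and *Ern1* with the inhibitor, *Hspa5* differed by 0.01 and *Hsp90b1* by 0.13 between LPS+USP7i and LPS, and the differences between these genes were not tested.

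For LPS against untreated cells, the 7 higher and 12 lower members are those of the fit across all 6 arrays. Without untreated replicate 1 or 2, 5 and 4 members passed, without LPS replicate 1 or 2, 8 and 14, where 9.74%, 8.01%, 11.3% and 13.5% of all gene names passed. The calls of *Dnaja2*, *Dnajb14*, *Dnajc9* and *Hspa14* held whichever array was left out. The call of 5 lower members (*Dnaja3*, *Dnajc30*, *Hsp90b1*, *Hspd1* and *Hspe1*) was lost with 75th percentile scaling, and those of *Dnajb1* and the partners *Bag3* and *Ptges3* when arrays were paired by replicate number. Among the named genes the calls that held under fewer than 8 of 15 alternatives were those of *Ptges3* (4) and *Hspe1* (6).

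For LPS+USP7i against LPS, the 15 calls rest on a spread shared by all 3 groups. With the 4 arrays of the 2 groups alone, 0 members and 0 of all gene names passed (limma). There 25 members and 8001 of the 34844 gene names had an unadjusted p under 0.05, against 27 and 9036 with all 6 arrays. Without LPS replicate 1 or 2, 3 and 3 members passed, and without LPS+USP7i replicate 1 or 2, 8 and 13, where 3.77%, 3.58%, 5.01% and 8.97% of all gene names passed. *Hspa1a* passed when LPS+USP7i replicate 2 was left out, with a difference of 2.06 (adjusted p = 0.0303), and read 0.62 without LPS+USP7i replicate 1, with an adjusted p of up to 0.493 over 15 alternatives. With 75th percentile scaling the calls of *Dnajb14*, *Dnajc30* and *Hspd1*, and of the partners *Cdc37* and *Herpud1*, were lost. With arrays paired by replicate number 10 members passed, where 7.29% of all gene names did, and the calls of *Dnajb1*, *Dnajb14*, *Dnajc13*, *Dnajc30* and *Hspa14*, and of the partners *Bag4*, *Cdc37*, *Grpel1* and *Herpud1*, were lost. Of the 15 alternatives, 3 kept the call of *Cdc37*, 4 those of *Dnajb14*, *Dnajc30* and *Hspa14*, 5 those of *Bag4* and *Herpud1*, 6 those of *Grpel1* and *Hspd1*, and 7 that of *Dnajc13*, and at least 8 kept each other call of the named genes.

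For LPS+USP7i against untreated cells, 5 and 2 of the 23 members passed without untreated replicate 1 or 2, 15 and 15 of them without LPS replicate 1 or 2, and 13 and 17 of them without LPS+USP7i replicate 1 or 2. With members that passed there alone, the last 4 counts were 16, 16, 18 and 20. Of the 34844 gene names 1538, 1050, 3337, 3336, 3892 and 3723 passed, in the same order. The calls of *Dnajc30* and *Hspa14* held whichever array was left out. When arrays were paired by replicate number the calls of *Dnajc21* and *Dnajc28* were lost, and of the partners *Bag3*, *Grpel1*, *Herpud1* and *Hscb*. Of the 15 alternatives, 6 kept the calls of *Bag4*, *Dnajc21*, *Dnajc28*, *Grpel1* and *Hsp90b1* and 7 that of *Chordc1*, and at least 8 kept each other call of the named genes.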

How the data were processed

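RNA from the 6 cultures was labeled with Cy3 and hybridized to 1-color Agilent arrays. The authors deposited, per the file headers, spot intensities from Feature Extraction 10.7.3.1, background-subtracted on a linear scale, and between-array normalized log2 values in a single table. Here the log2 processed intensity was quantile-normalized over non-control spots, outlier-flagged spots were left out, and spots of a probe were averaged. A linear model over all 6 arrays was fitted with limma 3.58.1 in R 4.3.3, with version 1.17.8 of data.table, and p-values were adjusted by Benjamini-Hochberg over 55680 probes at a threshold of 0.05. A gene is its probe with the highest mean signal. The fit was tried on simulated data with independent noise on each array. Such data lack the correlation seen between arrays of the same replicate number, so its effect on the calls was not tested there. Of the 110 member probes, 100 matched a RefSeq transcript, all of the same symbol.

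Members, compartments, partner genes and marker lists were chosen with earlier results of these data known. Genes named are the core chaperones, 10 listed partners and, per comparison and compartment, the 3 largest increases and 3 largest decreases among those that passed and were well above background, with 3 of each among partners. The alternatives tried are 75th percentile scaling, normexp with an offset of 50, the deposited table, dim probes left out, flagged spots kept and a trended prior. Further ones are the 2 groups alone, a replicate block, each array left out, and the mean over a gene's probes. For counts of members alone, a log2 difference of at least 1 was also tried. Leaving out an array of the group not compared gives nearly the fit of the 2 groups alone, so these alternatives are not separate checks.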

Additional observations from a re-analysis of the deposited data

How the results depend on the processing

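The number of members past the threshold was 19 with LPS, 15 with LPS+USP7i against LPS and 23 with LPS+USP7i against untreated cells. With 75th percentile scaling it was 32 with LPS and 39 with LPS+USP7i against untreated cells, where 46.6% and 44.7% of all gene names passed and their median was 0.41 and 0.44, and 10 of each were read by probes well above background on no array. With the deposited log2 table it was 10 with LPS and 9 with LPS+USP7i against LPS, where 15.3% and 7.37% of all gene names passed, and the cause was not tested. Requiring a log2 difference of at least 1, a stricter rule, gave 6, 8 and 11, where 12.2%, 6.01% and 8.62% of all gene names passed. Fitting the 2 groups alone, which leaves fewer arrays for the spread, gave 0 with LPS+USP7i against LPS (limma). There 25 members and 8001 of the 34844 gene names had an unadjusted p under 0.05. The same choice gave 10 higher and 13 lower with LPS, where 18.9% of all gene names passed. For LPS+USP7i against untreated cells it gave 10 higher and 6 lower, where 9.58% passed. Leaving out each array in turn gave from 4 to 23 with LPS, from 0 to 13 with LPS+USP7i against LPS and from 2 to 20 with LPS+USP7i against untreated cells, where a lone array was assumed to vary like the other groups. With the replicate block, which pairs arrays by number although the labels do not say that a number is a shared experiment, 20, 10 and 22 passed, where 21.8%, 7.29% and 15.8% of all gene names did.

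In direction, Hsp90aa1 and Hsp90ab1 with LPS turned to 0.48 and 0.38 under 75th percentile scaling, where the median of all gene names was 0.41 and that of gene names well above background 0.05. Dnajb14 with LPS+USP7i against LPS was 0.00 as a mean over its probes, where its second probe differs. For the 46 named genes under 15 alternatives, 558 of 690 values with LPS, 496 with LPS+USP7i against LPS and 529 with LPS+USP7i against untreated cells kept direction and side of the threshold. In the same order 90, 153 and 135 fell short of it and 27, 26 and 13 newly passed. For the 13 members above background on no array, signal limits what can be seen.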
